A study of Mus musculus with 34 samples.

Results

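Collagens and the enzymes that make and process them were described in mouse osteosarcoma (OS) cells in culture and in tumours grown from the same cells. Members were all listed genes whose symbol has the form of a collagen chain gene, together with 15 named genes for procollagen hydroxylation, folding, processing and cross-linking. There were 44 members among the 16576 genes listed for the cultures, 31 of them collagen genes and 13 processing genes. There were 46 members among the 12595 genes listed for the tumours, 36 collagen genes and 10 processing genes, and 32 members were in both tables. Members were taken by their symbols and not by a threshold on their values, though the list was set with earlier results of these data known.

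All samples came from MOSJ-Dkk1 cells, a murine osteosarcoma line, osteochondral by its label and marked with a red fluorescent protein, carrying a lentiviral vector from which the CMV promoter constitutively drives human Dkk-1, a secreted inhibitor of Wnt signalling. RNA sequencing covered 18 cultures in 6 groups of 3 and 16 tumours in 4 groups of 4. Cultures were in the logarithmic (log) phase of growth, reached after 6 days, or under nutritional stress, with 48 h of confluence and no change of medium for 4 days. In each condition the cells had 5 µM DkkMo, a vivo morpholino directed against Dkk-1, 5 µM scrMo, its control morpholino, or no morpholino (NT). These doses are from the study's detailed methods, and a figure legend of the study gives a higher DkkMo dose for the log phase. Tumours were grown in NU/J nude mice, 2 months old at injection, which lack a functional thymus, and came from mice given vehicle (NT), doxorubicin (DRB), DkkMo or DRB and DkkMo together (Combination). The tumour and stroma were dissected from fixed animals and extracted by a protocol for fixed tissue. A single cell line stands behind every sample. The title of 2 NT libraries under nutritional stress carries the same number, and the sources do not say if these were grown apart. P values therefore measure the spread between these samples, which may be partly technical. The level of the Dkk-1 transcript was not analysed here.

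Collagens are secreted proteins of 3 intertwined chains. Fibrillar collagens (types I, II, III, V, XI and others) form the tensile fibres of bone, cartilage and skin, with type I the main protein of bone matrix, while network collagens (types IV, VIII and X) form sheets such as basement membranes. Inside the cell, prolyl and lysyl hydroxylases modify the chains and the chaperone HSP47 (Serpinh1) holds the folded trimer. Outside the cell, BMP1 and its enhancers Pcolce and Pcolce2 remove the C-propeptide, and the lysyl oxidases Lox and Loxl cross-link the fibres. Osteoblasts, the normal counterpart of OS cells, are among the main producers of type I collagen.

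From 25876000 to 44780000 reads per culture, to the nearest 1000, lay on listed genes, and 26863000 to 125059000 per tumour. Replicate cultures ranked genes almost alike, with Spearman's rho from 0.992 to 0.998 within groups, whereas replicate tumours gave 0.249 to 0.854. Of 10 osteoblast markers, 7 were listed in the cultures, with Spp1 at a median of 79860 normalized counts (reads divided by the size factor of the library), Runx2 at 3061 and Alpl at 11.1, and Sp7, Ibsp and Dmp1 were not listed. Sox9 was the only listed chondrocyte marker of 7. In the tumours, 6 osteoblast markers were listed, and no skeletal muscle marker of 8.

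Promoters of 43 of the 58 members had an entry in the RefSeq promoter table for GRCm38.p6, each 300 bases from 250 before to 50 after the start of the gene. Col1a2 (type I), Col3a1 (type III), Pcolce (a processing enhancer) and Col6a1 (type VI) were upregulated with DkkMo against scrMo in log phase. Entries are shown for these 4 members and for Col11a2, a type XI chain that rose under nutritional stress. They lie at chr6:4505368-4505667, plus strand (Col1a2), chr1:45311288-45311587, plus strand (Col3a1), chr5:137611355-137611654, minus strand (Pcolce), chr10:76725995-76726294, minus strand (Col6a1) and chr17:34038888-34039187, plus strand (Col11a2). Each is printed from 5′ to 3′ along its gene, with capitals for the CCAAT box (letters CCAAT, or ATTGG on the other strand), the GC box (letters GGGCGG, with CCGCCC on the other strand) and the TATA box (letters TATAAA, with TTTATA on the other strand), motifs that do not overlap one another here.
Col1a2: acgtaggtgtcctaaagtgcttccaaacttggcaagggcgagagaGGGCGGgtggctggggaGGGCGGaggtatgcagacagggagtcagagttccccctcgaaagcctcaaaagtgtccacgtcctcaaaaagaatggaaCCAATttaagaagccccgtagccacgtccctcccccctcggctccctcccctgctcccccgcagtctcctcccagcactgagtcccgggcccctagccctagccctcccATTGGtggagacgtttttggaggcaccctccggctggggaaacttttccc
Col3a1: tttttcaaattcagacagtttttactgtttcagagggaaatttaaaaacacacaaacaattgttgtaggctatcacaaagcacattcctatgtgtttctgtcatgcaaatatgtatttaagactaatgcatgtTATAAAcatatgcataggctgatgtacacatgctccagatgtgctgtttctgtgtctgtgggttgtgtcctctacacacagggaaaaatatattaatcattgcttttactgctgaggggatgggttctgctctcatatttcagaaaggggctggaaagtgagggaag
Pcolce: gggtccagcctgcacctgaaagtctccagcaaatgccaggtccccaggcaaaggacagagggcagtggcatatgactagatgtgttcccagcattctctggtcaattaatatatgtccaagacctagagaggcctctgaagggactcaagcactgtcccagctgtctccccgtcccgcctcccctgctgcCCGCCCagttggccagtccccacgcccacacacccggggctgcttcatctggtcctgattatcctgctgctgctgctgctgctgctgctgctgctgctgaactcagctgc
Col6a1: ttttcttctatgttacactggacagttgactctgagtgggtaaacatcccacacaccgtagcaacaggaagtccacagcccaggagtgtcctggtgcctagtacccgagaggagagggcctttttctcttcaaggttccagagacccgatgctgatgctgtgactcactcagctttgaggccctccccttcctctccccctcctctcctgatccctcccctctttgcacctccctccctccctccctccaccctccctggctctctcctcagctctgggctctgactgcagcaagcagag
Col11a2: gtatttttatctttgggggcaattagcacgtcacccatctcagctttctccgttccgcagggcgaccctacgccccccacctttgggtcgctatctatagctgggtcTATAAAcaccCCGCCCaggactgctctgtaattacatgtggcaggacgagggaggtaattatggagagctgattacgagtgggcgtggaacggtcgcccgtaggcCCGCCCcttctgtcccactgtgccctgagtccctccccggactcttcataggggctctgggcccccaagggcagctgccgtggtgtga

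Col1a2 held CCAAT 109 bases before its start, ATTGG at the start and GGGCGG at 205 and 188 bases before it. Col3a1 held TATAAA 117 bases before its start, Pcolce CCGCCC 60 bases before it, and Col6a1 none of these letters. In Col11a2, TATAAA began 143 bases and CCGCCC 133 and 38 bases before the start. Among all 32851 promoters of the table outside chromosome 18, 37.4% held CCAAT, 35.7% GGGCGG and 13.6% TATAAA on either strand. Among the 46 promoters of the members these shares were 32.6%, 65.2% and 13.0%. Members upregulated with DkkMo against scrMo in log phase had 9 promoters among these. Of the 9, 2 held the CCAAT box, 7 the GC box and 1 the TATA box. Such matches describe letters only.

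In the cultures, the members ranged over 4 orders of size. On the scale of normalized counts per kb of exon, averaged over the 18 libraries, the highest were P4hb at 14576 and Serpinh1 at 14016. P4hb is protein disulphide isomerase, the beta subunit of prolyl 4-hydroxylase and a general folding enzyme. Pcolce followed at 1642, then Col1a1 at 1369 and Col1a2 at 1224, the chains of type I collagen. Among collagens of other classes, the type VI chain Col6a3 was at 1068, the network chains Col8a1 and Col4a1 at 609 and 585, and the cross-linking enzyme Lox at 607. The cartilage collagens were low, with Col2a1 at 1.27 and Col10a1 at 4.66. Loxl2 and Colgalt1 were not listed for the cultures.

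**Figure D1:**
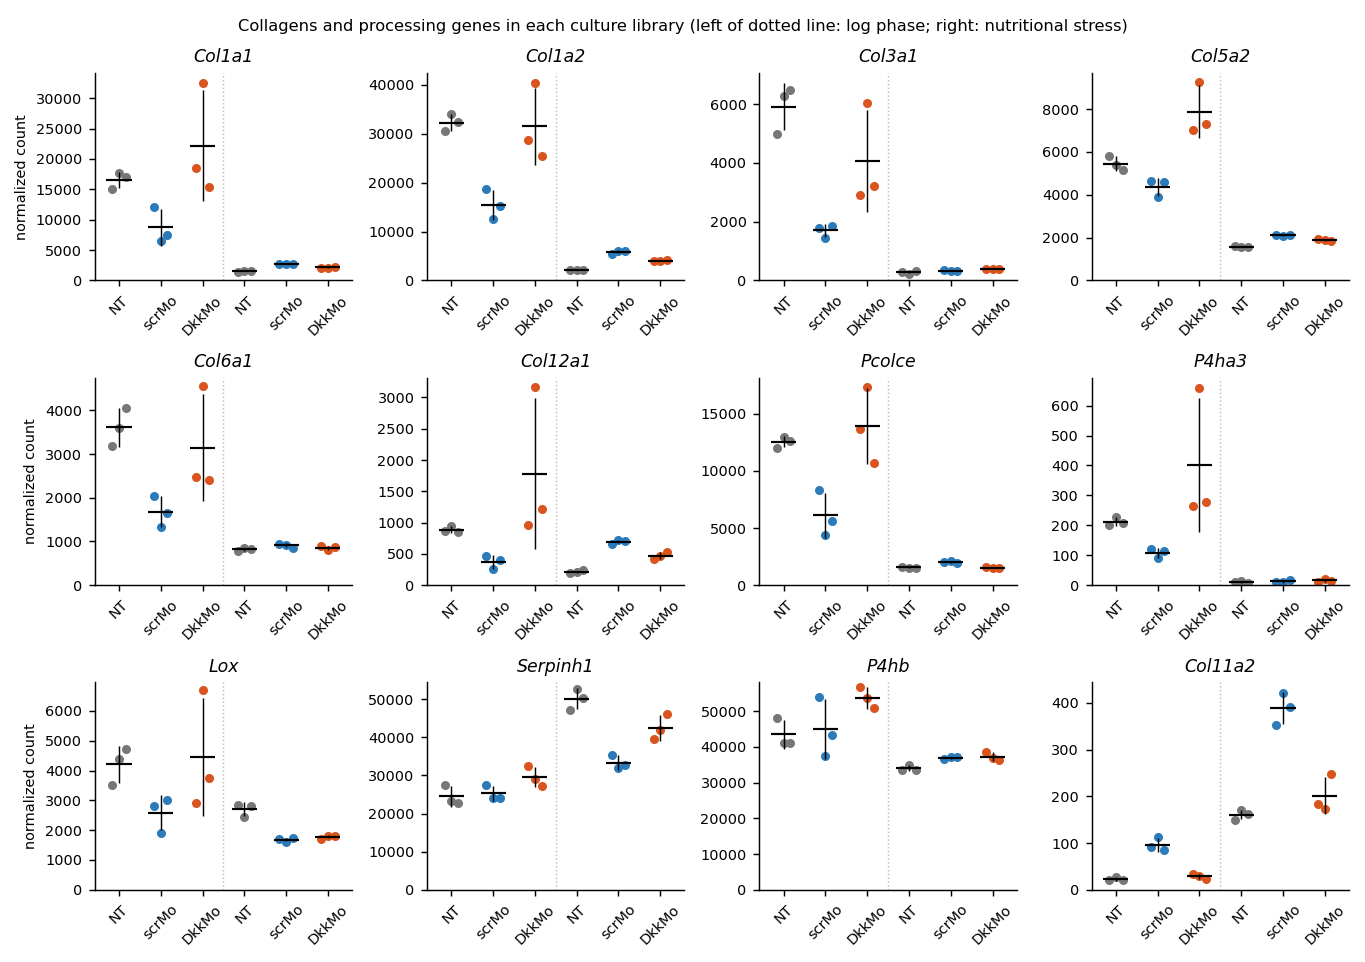
Normalized count of 12 members in each of the 18 cultures, with 1 point per library, a horizontal bar at the group mean and a vertical line of 1 SD to each side. In log phase the scrMo cultures sit below DkkMo for type I and III collagen, Pcolce and P4ha3 and above it for Col11a2, and under nutritional stress the type I, III, V and VI chains are lower than in log phase in every treatment, while Serpinh1 and Col11a2 are higher.

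The first comparison was between DkkMo and its control morpholino scrMo in proliferating cells. In log phase, DkkMo-treated cultures held more collagen transcripts: 12 of 44 members were upregulated and 0 downregulated by limma at a Benjamini-Hochberg adjusted p under 0.05 and a change over 1.5-fold (DE), against 1.66% of all 16562 genes tested that were upregulated and 0.308% that were downregulated. In all, 38 of 44 members were higher with DkkMo, with a median log2 fold change of 0.34 for the members and 0.00 for all genes. Fibrillar collagens contributed 5 of 10, network collagens 0 of 7, other collagens 4 of 14, hydroxylation and folding genes 1 of 6, procollagen processing genes 1 of 3 and cross-linking genes 1 of 4. At the adjusted p alone, 30 members were higher and 1 lower, against 23.5% of all genes in either direction. DkkMo library 2 was the highest of its group for all 12, and without it 8 members were upregulated.

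Both chains of type I collagen were upregulated. Col1a1, its alpha1 chain, was at 18500.3, 32561 and 15444 normalized counts in the 3 DkkMo libraries and at 12158, 6476 and 7535 in the 3 scrMo libraries, without overlap (log2 fold change 1.29 ± 0.20 (SE), adjusted p = 0.000125). Col1a2, its alpha2 chain, was at 28636, 40444 and 25397 with DkkMo and 18665, 12591 and 15140.1 with scrMo (log2 fold change 1.00 ± 0.13 (SE), adjusted p = 2.24e-05). Both chains were thus higher in every DkkMo library than in any scrMo library, and the ratio of group means was 2.54 for Col1a1 and 2.04 for Col1a2. The NT cultures held 15121, 17678 and 17004 of Col1a1 and 30502, 34020.4 and 32304 of Col1a2, within or near the DkkMo range.

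The fibrillar chains that assemble with type I moved in the same direction. Col3a1, the chain of type III collagen, was at 2925, 6058 and 3218 with DkkMo and 1797, 1459 and 1869 with scrMo (log2 fold change 1.07 ± 0.17 (SE), adjusted p = 0.000139). Col5a2, a type V chain that nucleates fibrils, was at 7027, 9283 and 7319.6 and 4629, 3878 and 4604 (log2 fold change 0.80 ± 0.08 (SE), adjusted p = 1.68e-06). Its partner Col5a1 was at 5595, 7251 and 5747 and 4209.8, 3241 and 4052 (log2 fold change 0.65 ± 0.09 (SE), adjusted p = 3.11e-05). In these 3 genes no DkkMo library fell to the scrMo range, although Col5a1 fell short of the 1.5-fold threshold without DkkMo library 2 or without scrMo library 2 (0.54 in each). The third type V chain, Col5a3, was not DE (−0.12 ± 0.11, adjusted p = 0.468), with overlapping libraries at 2554, 3063 and 2607 and 3711, 2309 and 3124. Col3a1 shares up to 141 bases of exon with another annotated gene on its strand and Col5a1 up to 113 with an antisense gene, and the strand used in counting is not given in the sources used here.

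Type XI collagen is a relative of type V found in cartilage, and neither of its chains was DE. Col11a1 was at 185, 469 and 257 with DkkMo and 122, 135 and 156 with scrMo, a log2 fold change of 0.54 ± 0.12 (adjusted p = 0.002) that was under the 1.5-fold threshold on the deposited scale. Col11a2 went the other way, at 34.4, 28.8 and 22.4 with DkkMo and 90.7, 112 and 84.2 with scrMo (−0.51 ± 0.07, adjusted p = 2.58e-05). All 3 scrMo libraries were above all others of the log phase for this gene, and the NT libraries were at 21.3, 27.1 and 20.7. The deposited transformation compresses changes at such low counts: the ratio of the group means of Col11a2 was 0.298, while its fold change on the deposited scale was too small to be called.

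Several collagens that sit on fibrils or in microfibrils were also DE. Col12a1, which coats fibrils in tendon and periosteum, had the largest log2 fold change among the members, 1.58 ± 0.23 (adjusted p = 7.12e-05), with 968, 3165 and 1216 in the DkkMo libraries and 464, 252 and 395 with scrMo. DkkMo library 2 was well above the others of its group, but each DkkMo library exceeded each scrMo library. Col16a1, another fibril-associated collagen, was at 2095, 3264 and 1913 and 1646, 1065 and 1366 (log2 fold change 0.71 ± 0.13 (SE), adjusted p = 0.000737), and was no longer over 1.5-fold without DkkMo library 2 (0.50) or without scrMo library 2 (0.57).

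Type VI collagen forms beaded microfibrils from 3 chains. Col6a1 was at 2478, 4559 and 2411 with DkkMo and 2048, 1335 and 1654 with scrMo (log2 fold change 0.77 ± 0.16 (SE), adjusted p = 0.00158). Col6a2 was at 885, 1530.4 and 838 and 617, 402 and 472 (log2 fold change 0.81 ± 0.14 (SE), adjusted p = 0.000243). Neither overlapped between the groups, but without DkkMo library 2 Col6a1 was at 0.49 and was no longer DE, nor was it with only these groups in the model (adjusted p = 0.0645). Col6a3, the longest chain, overlapped at 16215, 21327 and 19965 and 14331, 13572 and 17219, and its log2 fold change of 0.34 ± 0.09 was under the threshold of 1.5-fold.

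Among the network collagens, Col4a1 of basement membranes was at 6252, 8308 and 6694 with DkkMo and 4727, 4362 and 4927 with scrMo, without overlap, but its log2 fold change of 0.56 ± 0.07 (adjusted p = 2.86e-05) was just under 1.5-fold. Its trimer partner Col4a2 was at 3639, 4582 and 3957 and 3451, 3537 and 3326 (0.22 ± 0.06, adjusted p = 0.0164). The 7 network collagens had log2 fold changes from −0.10 to 0.56.

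Of the processing genes, Pcolce had the largest log2 fold change on the deposited scale, on which changes at low counts are compressed. It was at 13653, 17352 and 10694 in the DkkMo libraries and 8292, 4408 and 5652 in the scrMo libraries (log2 fold change 1.17 ± 0.16 (SE), adjusted p = 3.3e-05), without overlap. It shares up to 112 bases of exon with Fbxo24 on its strand. P4ha3, a catalytic alpha subunit of prolyl 4-hydroxylase, was at 265, 660.4 and 279 with DkkMo and 120.3, 90.0 and 115 with scrMo (log2 fold change 0.91 ± 0.14 (SE), adjusted p = 0.000113). Both were therefore higher in each DkkMo library, with a ratio of means of 2.27 for Pcolce and a larger one for P4ha3, 3.7. Lox overlapped between the groups, at 2906, 6699.8 and 3764 and 2802, 1909 and 3017 (log2 fold change 0.67 ± 0.19 (SE), adjusted p = 0.0155), and without DkkMo library 2 its log2 fold change was 0.35 (adjusted p = 0.102). Its call was also lost without scrMo library 2 (0.49, adjusted p = 0.101) and with only these groups in the model (adjusted p = 0.16). The related Loxl1, Loxl3 and Loxl4 were at 0.24, 0.41 and 0.41, below the fold threshold.

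The most abundant processing genes were not DE. P4hb was at 56799.5, 53688 and 50726 with DkkMo and 54016, 37403 and 43332 with scrMo (0.27 ± 0.10, adjusted p = 0.048), and its groups overlapped. Serpinh1 was at 32401, 29109 and 27337 and 27605, 24168 and 24125 (0.22 ± 0.09, adjusted p = 0.0709). The 33 listed partners of collagen were receptors, collagenases, small proteoglycans and further modifying enzymes. Of these, 8 were upregulated and 0 downregulated, against 1.66% and 0.308% of all genes. The 8 were the collagenases Mmp13 (1.07), Mmp2 (0.76) and Mmp14 (0.62), the collagen receptors Mrc2 (1.10) and Itga11 (0.94), the matrix proteins Sparc (0.84) and Bgn (0.72), and P3h4 (0.63), a partner of lysyl hydroxylase.

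Markers of other cell types were read beside these values. The summed normalized counts of the listed osteoblast markers ranged from 150319 to 152808 with DkkMo, 100123 to 130922 with scrMo and 201001 to 229246 in NT, most of them from Spp1. The 3 listed fibroblast markers of 5 summed to 4712 to 5943 with DkkMo and 7146 to 8758 with scrMo, most of them from Pdgfra, and Lum and Dpt were not listed. Of 9 haematopoietic markers 4 were listed, at 1285 to 1582 with DkkMo and 1443 to 1899 with scrMo. Of 5 endothelial markers only Pecam1 was listed, at 269 to 301 and 269 to 332. The osteoclast, skeletal muscle and epidermis lists had 2 of 6, 3 of 8 and 1 of 4 genes listed, and the adipocyte list 0 of 4. The part of these differences in the collagen values was not tested, and bulk RNA cannot tell fewer cells of a type from less RNA per cell.

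The control morpholino was next compared with no morpholino. In log phase, scrMo cultures had less collagen transcript than NT cultures: 0 members were upregulated and 12 downregulated, against 0.592% of all genes up and 1.85% down, and the members' median was −0.19. Because this comparison and the previous one share the scrMo libraries, their values are only set side by side. Col3a1 had the largest change, a log2 fold change of −1.64 ± 0.17 (adjusted p = 8.48e-07) from NT libraries at 4994, 6267 and 6499. Further members that were DE between DkkMo and scrMo also fell, which were Col1a2 (−1.06), Pcolce (−1.05), Col6a1 (−1.0), Col1a1 (−0.95), Col12a1 (−0.90), Col16a1 (−0.88), Col6a2 (−0.87), Lox (−0.66) and Col5a1 (−0.59). The other DE members were the type IV chains Col4a6 (−1.10) and Col4a5 (−0.81), neighbours on the X chromosome. Lox was no longer DE without scrMo library 2 (−0.48, adjusted p = 0.0912), nor without NT library 2 (adjusted p = 0.0537) or 3 (0.0726). Col5a1 fell short of 1.5-fold with centred libraries (−0.54) and without NT library 1 or 2 (−0.58 in each) or scrMo library 2 (−0.48).

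DkkMo against NT in log phase left 1 member DE. Among the members, 0 were upregulated and 1 downregulated, against 0.513% and 0.314% of all genes, and the median was 0.06. The single DE member was Col4a6, at 1888, 2886 and 2071 with DkkMo and 3461, 4031 and 4162 in NT (log2 fold change −0.72 ± 0.11 (SE), adjusted p = 0.000239). At the adjusted p alone, 9 members passed, 7 higher and 2 lower, against 9.81% of all genes. Col1a1 was at 0.34 ± 0.20 (adjusted p = 0.338), Col1a2 at −0.06 ± 0.13 (adjusted p = 0.833) and Col3a1 at −0.57 ± 0.17 (adjusted p = 0.0346). None of the 12 members that differed between DkkMo and scrMo was DE against NT, which does not show that they were equal. Without DkkMo library 1, 5 members were DE, 4 of them upregulated, 3 were DE without DkkMo library 3, and 2 without DkkMo library 2 or NT library 1.

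**Figure D2:**
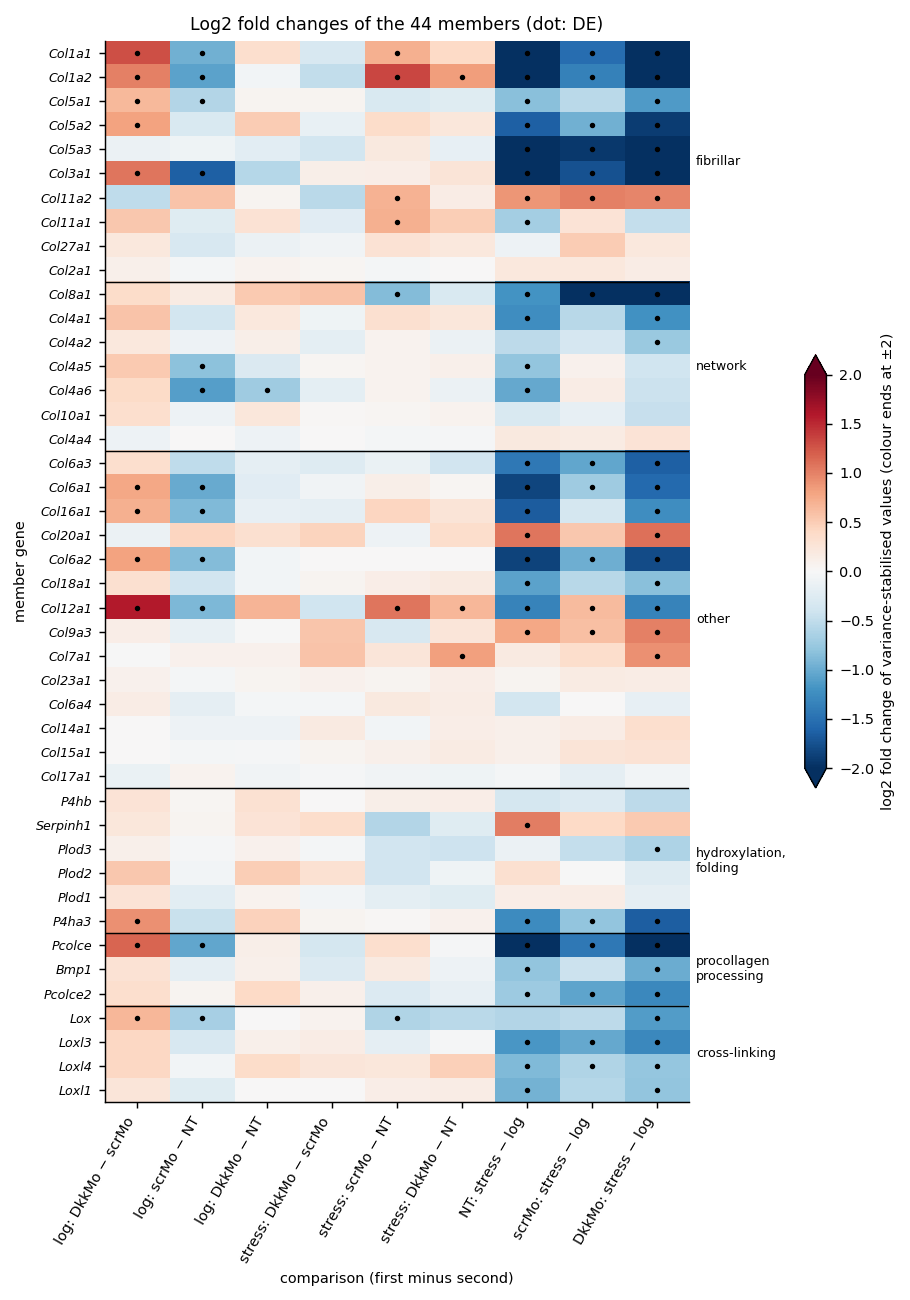
Log2 fold change of each of the 44 members in 9 culture comparisons, with colour from blue (lower in the first group) to red (higher) and a black dot where the member was DE. Comparisons that share a group also share its libraries. The first column is red for most fibrillar collagens where the second is blue, and the last columns show the fall of most members under nutritional stress.

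Under nutritional stress, the same comparison of DkkMo with scrMo gave 0 DE members by limma, against 1.0% of all genes in either direction. At the adjusted p alone, 7 members were higher and 6 lower, against 20.9% of all genes. At an unadjusted p under 0.05 there were 15 of 44 members and 5398 of 16562 genes, a similar share. With both thresholds, voom on the recovered reads called 5 members and 918 genes. Leaving out DkkMo library 3 gave 2 members and 155 genes. Leaving out DkkMo library 2 or scrMo library 1 or 2 gave 1 member and 147 to 194 genes. The median over the members was 0.01. Fibrillar collagens were lower with DkkMo in 7 of 10 cases. Col1a2 was at 3983, 4005 and 4146 with DkkMo and 5502, 6086 and 5926 with scrMo (−0.50 ± 0.13, adjusted p = 0.00905), without overlap. Col1a1 was at 2074, 2129 and 2215 and 2742, 2774 and 2682 (−0.32 ± 0.20, adjusted p = 0.291). Col12a1 was at 412, 471 and 527 and 663, 720.3 and 707 (−0.40 ± 0.23, adjusted p = 0.241). For these genes the order of the groups was thus the reverse of that in log phase, though no change passed both thresholds.

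The difference between the conditions was tested directly as an interaction, the log2 fold change of DkkMo against scrMo under nutritional stress minus that in log phase. It was DE and negative for 14 of 44 members and positive for 0, against 2.83% and 0.869% of all genes, with a median of −0.28. The 14 were Col12a1 (−1.98 ± 0.32, adjusted p = 0.000272), Col1a1 (−1.61 ± 0.28), Pcolce (−1.52 ± 0.22), Col1a2 (−1.50 ± 0.18), Col5a2 (−0.95), Col3a1 (−0.94), Col16a1 (−0.89), P4ha3 (−0.85), Col6a1 (−0.84), Col6a2 (−0.80), Col11a1 (−0.76), Col4a1 (−0.65), Col6a3 (−0.59) and Col5a1 (−0.59). By class they were 6 of 10 fibrillar, 1 of 7 network and 5 of 14 other collagens, 1 of 6 hydroxylation and folding genes, 1 of 3 procollagen processing genes and 0 of 4 cross-linking genes. Without DkkMo log phase library 2, 7 members were DE, all negative, and with libraries centred on their median 2 were positive and 11 negative. Col6a3 lost its call in 8 alternatives (−0.50 to −0.58) and Col5a1 in 6 (−0.48 to −0.58), each time below 1.5-fold, namely with centred libraries and without single libraries of either treatment and condition. Col4a1 lost it with centred libraries (−0.55) and without DkkMo log phase library 2 (−0.53). For P4ha3 the counts under stress were as low as 11.2, 21.4 and 15.1 with DkkMo and 10.2, 10.1 and 16.5 with scrMo, and voom on the recovered reads, which weights such counts differently, gave an adjusted p of 0.235. Of the 33 partners, 8 had a negative interaction and 0 a positive one, against the same 2.83% and 0.869% of all genes. Among the 8 were Mmp2 (−1.25), Sparc (−1.16) and Mmp14 (−0.97).

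**Figure D3:**
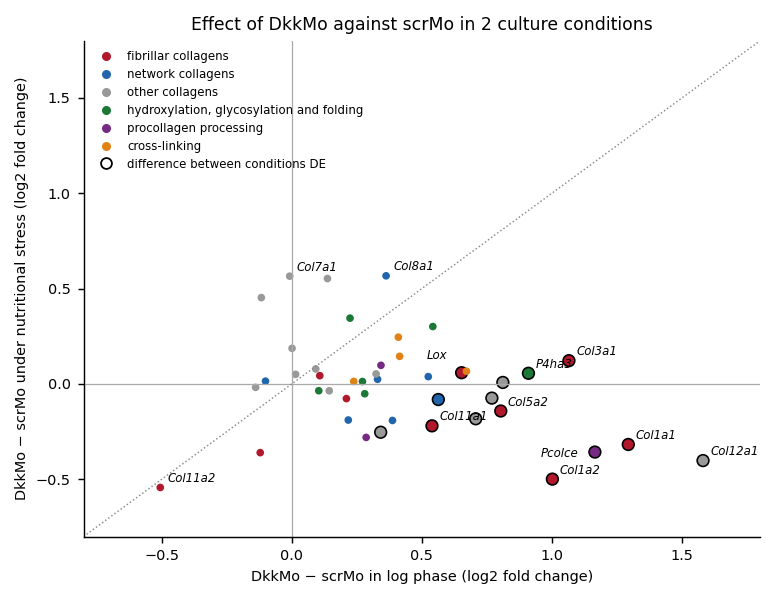
Log2 fold change of DkkMo against scrMo in log phase (horizontal) and under nutritional stress (vertical) for the 44 members, coloured by class, with a black outline where the difference between the conditions was DE. Outlined points lie to the right of 0.3 and near or below 0 on the vertical axis, below the dotted line of equal effects.

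Against NT under nutritional stress, scrMo cultures had 5 members upregulated and 2 downregulated, against 1.9% and 2.54% of all genes. Col1a2 was at 5502, 6086 and 5926 with scrMo and 2218, 2137 and 2100.5 in NT (log2 fold change 1.33 ± 0.13 (SE), adjusted p = 1.56e-07). Col12a1 (1.07), Col1a1 (0.72), Col11a1 (0.72) and Col11a2 (0.69) were also upregulated. Col8a1, a network collagen of vessel walls and cornea, was at 1203, 1445 and 1238 and 2692, 2329 and 2773 (−0.87), and Lox was downregulated too (−0.60), a call lost without NT library 1 (−0.56) or 3 (−0.57) or scrMo library 2 (−0.57). With DkkMo, 3 members were upregulated and 0 downregulated against NT, beside 1.12% and 1.54% of all genes, and they were Col1a2 (0.83), Col7a1 (0.81), which anchors the epidermis, and Col12a1 (0.67). The call of Col12a1 was lost without NT library 1 or 2 or without DkkMo library 2 or 3, with adjusted p values from 0.0598 to 0.0806. These comparisons share the NT libraries.

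The last culture comparison was of nutritional stress with log phase. Most collagens were lower under nutritional stress in NT and with DkkMo. In NT, 4 members were upregulated and 24 downregulated, against 8.22% and 9.9% of all genes. With scrMo, 3 rose and 14 fell, against 4.38% and 6.28%, and with DkkMo 4 rose and 24 fell, against 6.24% and 10.2%. Medians of the members were −0.76, −0.34 and −0.76, where all genes were near 0. Centring each library on its median moved the median of all genes from −0.01 to 0.14 in NT, from −0.01 to 0.06 with scrMo and from −0.01 to 0.15 with DkkMo. Then 22, 13 and 22 members fell and 4, 4 and 5 rose, while for all genes 1120, 845 and 1093 fell and 2244, 947 and 1908 rose. In all 3 treatments alike, 14 members fell and 2 rose, against 3.9% and 2.09% of all genes.

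Col3a1 had the largest fall by the mean of the 3 log2 fold changes. Its libraries were at 4994, 6267 and 6499 in log phase NT and 298, 237 and 316 under stress, a change of −3.53 ± 0.17 (adjusted p = 1.12e-12). With scrMo it was at 351, 313 and 335 under stress (−1.75 ± 0.17) and with DkkMo at 374, 384 and 389 (−2.69 ± 0.17). In NT the mean in log phase was thus 20.9 times that under stress.

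Col1a2 was close behind. Under stress its NT libraries were at 2218, 2137 and 2100.5, against 30502, 34020.4 and 32304 in log phase (−3.74 ± 0.13, adjusted p = 2.45e-14), a ratio of means of 15. The change was −1.35 ± 0.13 with scrMo and −2.85 ± 0.13 with DkkMo. Col1a1 was at 1475, 1576 and 1613 in NT under stress (−3.20 ± 0.20, ratio of means 10.7), and changed by −1.53 ± 0.20 with scrMo and −3.14 ± 0.20 with DkkMo. No library under stress reached the lowest library in log phase for either chain in any treatment. The smaller fall with scrMo than with DkkMo is the interaction given above for both chains, and the difference between NT and scrMo was not tested.

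The other members that fell in all 3 treatments came from all 6 classes. Pcolce was at 1603, 1502 and 1540 in NT, 2064, 2104 and 1933 with scrMo and 1588, 1481 and 1515 with DkkMo under stress, changes of −2.81, −1.42 and −2.94. In the same order, the changes of Col5a3 were −2.21, −1.94 and −2.18, and those of Col5a2 −1.63, −0.96 and −1.90. Col8a1 was the network collagen among them (−1.20, −2.23 and −2.03). The type VI chains Col6a1, Col6a2 and Col6a3 also fell, as did Pcolce2, P4ha3, Loxl3 and Loxl4. Some of these calls were near the fold threshold: Pcolce2 in NT fell short of it with centred libraries (−0.56), Loxl4 with scrMo with centred libraries (−0.54) or without log phase library 3 (−0.52) or stress library 1 (−0.55), and Col6a1 with scrMo without log phase library 1 (−0.58). P4ha3 was at 11.3, 12.4 and 8.53 in NT under stress against 202, 229 and 206 in log phase, a ratio of means of 19.7, and its change on the compressed deposited scale was −1.26. Loxl3 shares up to 369 bases of exon with Htra2 on the other strand. Lox itself changed by −0.58 in NT, −0.52 with scrMo and −1.12 with DkkMo, and passed the thresholds in the last, while its interaction of −0.60 ± 0.27 (adjusted p = 0.12) was not DE.

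The 2 members that rose in all 3 treatments are chains of cartilage collagens. Col11a2 was at 149, 170.1 and 163 in NT, 353, 422 and 392 with scrMo and 184, 174 and 247 with DkkMo under stress, changes of 0.88 ± 0.07, 1.01 ± 0.07 and 0.97 ± 0.07. The scrMo libraries were highest under stress as in log phase. Col9a3, a chain of type IX collagen on the surface of cartilage fibrils, was at 244, 284 and 243 in NT, 169, 174 and 159 with scrMo and 352, 327 and 346 with DkkMo under stress. Its log phase values were 83.5, 77.6 and 69.7 in NT, 45.9, 66.4 and 57.1 with scrMo and 82.1, 67.5 and 78.3 with DkkMo, and the changes were 0.77, 0.60 and 1.01. With scrMo the call was lost without log phase library 1 (0.56) or stress library 2 (0.58). Col9a3 shares up to 234 bases of exon with Tcfl5 on the other strand. Both genes had few reads beside type I collagen. The chain partner Col11a1 changed by −0.68 in NT, 0.28 with scrMo and −0.48 with DkkMo, DE in NT alone, and without the call there once libraries were centred (−0.53).

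Col12a1 changed in opposite directions. It fell under stress in NT (−1.34 ± 0.23) and with DkkMo (−1.34 ± 0.23) and rose with scrMo (0.64 ± 0.23, adjusted p = 0.0225), from 464, 252 and 395 to 663, 720.3 and 707. The rise was lost without scrMo log phase library 2 (0.49, adjusted p = 0.107) and without scrMo stress library 2 or 3 (adjusted p = 0.0566 and 0.0526). The chaperone Serpinh1 went against the collagens it binds, at 47213, 52704 and 50370 in NT under stress and 27595, 23199.6 and 22661 in log phase (log2 fold change 1.03 ± 0.09 (SE), adjusted p = 4.09e-09). Its change was 0.40 with scrMo and 0.52 with DkkMo, under the fold threshold, and all stress libraries of each treatment were above the log phase ones. P4hb was at 33443, 34973 and 33541 in NT under stress, a change of −0.35 that was not DE.

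Of the 33 collagen partners, 3 rose and 17 fell under stress in NT, beside 8.22% and 9.9% of all genes, 2 and 8 with scrMo, beside 4.38% and 6.28%, and 3 and 15 with DkkMo, beside 6.24% and 10.2%. Fibrillar collagens had 7, 5 and 6 of 10 downregulated in NT, scrMo and DkkMo, network collagens 4, 1 and 3 of 7, and other collagens 6, 3 and 6 of 14. All 3 procollagen processing genes fell in NT and with DkkMo and 2 with scrMo, and of the 4 cross-linking genes 3, 2 and 4 fell. Among hydroxylation and folding genes 1, 1 and 2 of 6 fell. The listed fibroblast markers were also lower under stress, at 3178 to 3466 in NT against 6624 to 7704 in log phase, as were the osteoblast markers, at 71883 to 78393 against 201001 to 229246, and the part of cell state or cell number in the collagen values was not tested.

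The share of all reads on collagen genes gave the same picture as a description, without a test. The 31 collagen genes took 0.367, 0.402 and 0.397% of reads in the log phase NT libraries, 0.25, 0.207 and 0.247% with scrMo and 0.338, 0.503 and 0.352% with DkkMo. Under stress the shares were 0.0918, 0.0856 and 0.0922% in NT, 0.11, 0.119 and 0.114% with scrMo and 0.104, 0.103 and 0.109% with DkkMo. The groups in log phase and under stress did not overlap, and in log phase the scrMo libraries were the lowest. Fibrillar genes made up 55.6 to 57% of collagen reads in log phase NT and 28.9 to 30.7% under stress. The 13 processing genes, most of whose reads were from P4hb and Serpinh1, ranged from 0.26 to 0.267% with scrMo under stress to 0.351 to 0.399% with DkkMo in log phase.

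**Figure D4:**
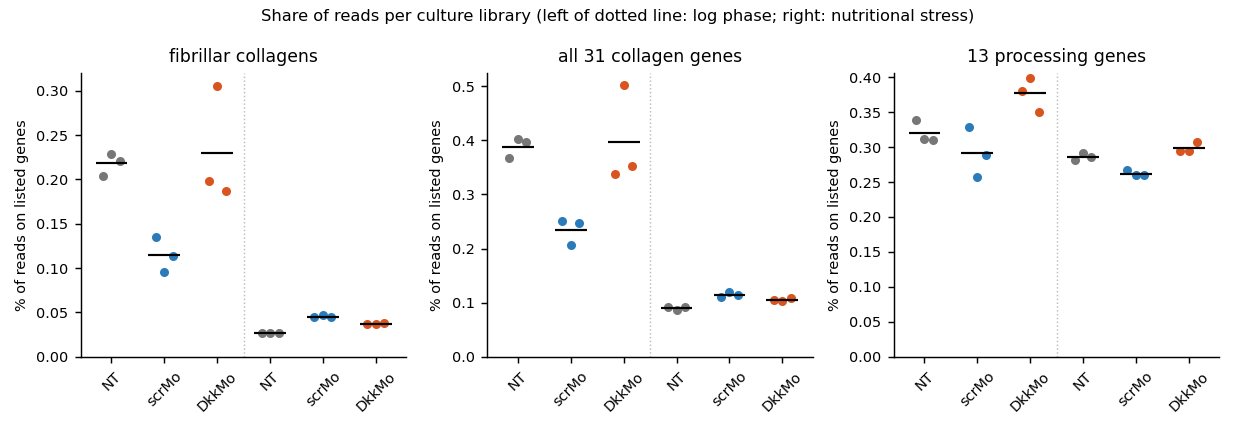
Share of the reads on listed genes that fell on the 10 listed fibrillar collagens, the 31 collagen genes and the 13 processing genes, in percent, with 1 point per library and a bar at the group mean. Collagen shares drop from 0.207 to 0.503% in log phase to 0.0856 to 0.119% under stress. The share of processing genes drops less. In NT it is 0.311 to 0.338% in log phase and 0.282 to 0.292% under stress. With DkkMo it is 0.351 to 0.399% and 0.295 to 0.308%, and with scrMo the conditions overlap.

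Type I collagen is a trimer of Col1a1 and Col1a2 chains. The exon length used was the union of all annotated exons, 6563 bp for Col1a1 and 12426 bp for Col1a2. The size of their ratio per kb depends on these lengths, while its differences between groups do not. On the scale of normalized counts per kb of exon, the ratio of Col1a1 to Col1a2 was 0.939 to 0.997 in log phase NT, 0.942 to 1.23 with scrMo and 1.15 to 1.52 with DkkMo. Under stress it was 1.26 to 1.45 in NT, 0.857 to 0.944 with scrMo and 0.986 to 1.01 with DkkMo. The NT libraries under stress lay above those in log phase, the DkkMo libraries below theirs, and the scrMo libraries overlapped.

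In the tumours the members had another order. Per kb of exon, Col19a1 (2151) and Col28a1 (2116), both not listed for the cultures, were above Col1a1 (1916), while Col1a2 (19.3) and Col3a1 (17.9) were among the 4 lowest of 46. Over the 32 members in both tables, the rank correlation of tumour and culture levels per kb was 0.11 (Spearman's rho across genes, which are not independent, with all genes sharing the same libraries). The rank correlation of level per kb with the genomic span of the gene was 0.33 over the 46 members in the tumours and −0.31 over the 44 in the cultures. Members listed only for the tumours had a median span of 140.6 kb and those only for the cultures 24.9 kb. Replicate tumours differed by orders of size: P4hb was at 12, 0, 0 and 65003 normalized counts in NT, 8869.7, 11.2, 342 and 34.6 with DRB and 76.6, 119, 1.23 and 10.8 with DkkMo, and was listed at 0 in all 4 Combination libraries. Serpinh1 was not listed. The ratio of Col1a1 to Col1a2 per kb, near 1 in culture, ranged from 29.9 to 3415 in the NT tumours, 11.7 to 126 with DRB, 317 to 3654 with DkkMo and 40.2 to 678 in the Combination, the NT range overlapping all the others.

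DkkMo was compared with NT in the tumours, with 0 DE members by limma and 0.0% of all genes. At an unadjusted p under 0.05 there were 6 members and 1554 genes, and voom called 0 members as well. The median of the members was −0.08 and that of all genes −0.54, and centring the libraries moved these to 0.57 and 0.11. Col1a1 was at 5317, 9546, 32741 and 14562 in the NT tumours and 12096, 11447, 18630.4 and 10472 with DkkMo, with overlap. Col1a2 was at 336, 162, 18.1 and 52.8 and 72.3, 13.7, 12.3 and 5.43, 3 of the DkkMo tumours lying below all NT tumours. DRB against NT also gave 0 DE members and 0.0% of all genes, with 5 members and 1500 genes at an unadjusted p under 0.05 and 0 members called by voom.

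Combination tumours were compared with DRB tumours to see what DkkMo adds to chemotherapy. Among 46 members 1 was upregulated and 5 downregulated, against 0.429% and 6.92% of all 12595 genes, so the members' share of falls, 5 of 46, was near that of all genes. The median was −0.14 for the members and −0.71 for all genes. Voom called 0 members. Centring the libraries moved the median of all genes to 0.33 and that of the members to 0.89, and left 1 up and 2 down. The direction over the members thus depended on the scaling. Collagen genes took 0.077 to 0.154% of reads with DRB and a higher share, 0.47 to 0.493%, in the Combination. The share of the processing genes overlapped, at 0.005 to 0.03% and 0.006 to 0.014%. Neither share was tested. Leaving out 1 tumour at a time left 1 to 6 members, with 1 without DRB tumour 1 and 2 without DRB tumour 2 or without any 1 of the Combination tumours.

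Pcolce had the largest fall, from 41719, 6466, 10237 and 9272 in the DRB tumours to 5.13, 261, 395 and 125 in the Combination tumours (log2 fold change −5.58 ± 0.95 (SE), adjusted p = 0.002). All Combination tumours were below all DRB tumours. Col6a2 was at 23462, 14469, 15003 and 747 with DRB and 216, 28.6, 218 and 109 in the Combination (log2 fold change −5.04 ± 1.08 (SE), adjusted p = 0.0113), also without overlap. Its fall was not DE without DRB tumour 1 (−4.53, adjusted p = 0.0501), and its trimer partner Col6a3 was at 36.9, 1701, 1449.9 and 1407 and 577, 1017, 881 and 2471, a log2 fold change of 0.43 ± 0.92 (adjusted p = 0.8).

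The remaining DE members stood close to the threshold. Col6a6, a further type VI chain, was at 3561, 2783, 533 and 953 with DRB and 59.5, 23.6, 14.1 and 202 in the Combination (log2 fold change −3.28 ± 0.85 (SE), adjusted p = 0.0266). Col13a1, a membrane-bound collagen, was at 3290.4, 2818, 540.4 and 1449 and 15.4, 7.57, 46.4 and 548 (log2 fold change −3.25 ± 0.97 (SE), adjusted p = 0.0475), with 1 Combination tumour inside the DRB range. Col4a1 was at 1606, 1070.3, 552 and 78.9 and 2.05, 133, 49.5 and 10.0 (log2 fold change −2.37 ± 0.71 (SE), adjusted p = 0.0472), with overlap, and its partner Col4a2 was at 0.26 ± 0.68 (adjusted p = 0.838). Col9a2, a type IX chain of cartilage, was higher in the Combination, at 2053, 2434, 1319.9 and 472 against 88.9, 143, 246 and 84.7 with DRB (log2 fold change 2.53 ± 0.76 (SE), adjusted p = 0.0472), and its NT values of 600.1, 978, 398 and 1233 lay above all DRB values. Each of these 4 lost its call without DRB tumour 1 or 2 and without any 1 of the 4 Combination tumours.

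Other measures moved with the same comparison. DRB tumours had 85319000 to 106124000 reads and Combination tumours 28333000 to 41051000. The 5 listed endothelial markers of 5 summed to 13610.4 to 91333 with DRB and 5589 to 11399.9 in the Combination, the 3 listed haematopoietic markers of 9 to 9880.4 to 190683 and 4780.2 to 10102, and the 2 listed fibroblast markers of 5 to 380.1 to 3186 and 10.9 to 335. The 6 listed osteoblast markers summed to 104844 to 1623549.7 and 9975 to 86194. Over all tumours, single genes reached at most 6000 for endothelial markers other than Pecam1 and 15187 for haematopoietic ones other than Ptprc. Osteoblast markers other than Spp1 reached at most 51593. The highest endothelial, haematopoietic and osteoblast sums with DRB thus came mostly from Pecam1, Ptprc and Spp1. The osteoclast markers overlapped, at 749 to 5911 and 354 to 3378 for 2 of 6, as did the chondrocyte markers, at 4477 to 5238 and 937 to 4546 for 5 of 7, and Dsp, the only listed epidermal marker of 4, at 696 to 4136 and 3194 to 7354. Plin1, the only adipocyte marker listed, was at 555 to 2035 and 10.1 to 784. The part of depth and of these cell types in the collagen values was not tested.

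**Figure D5:**
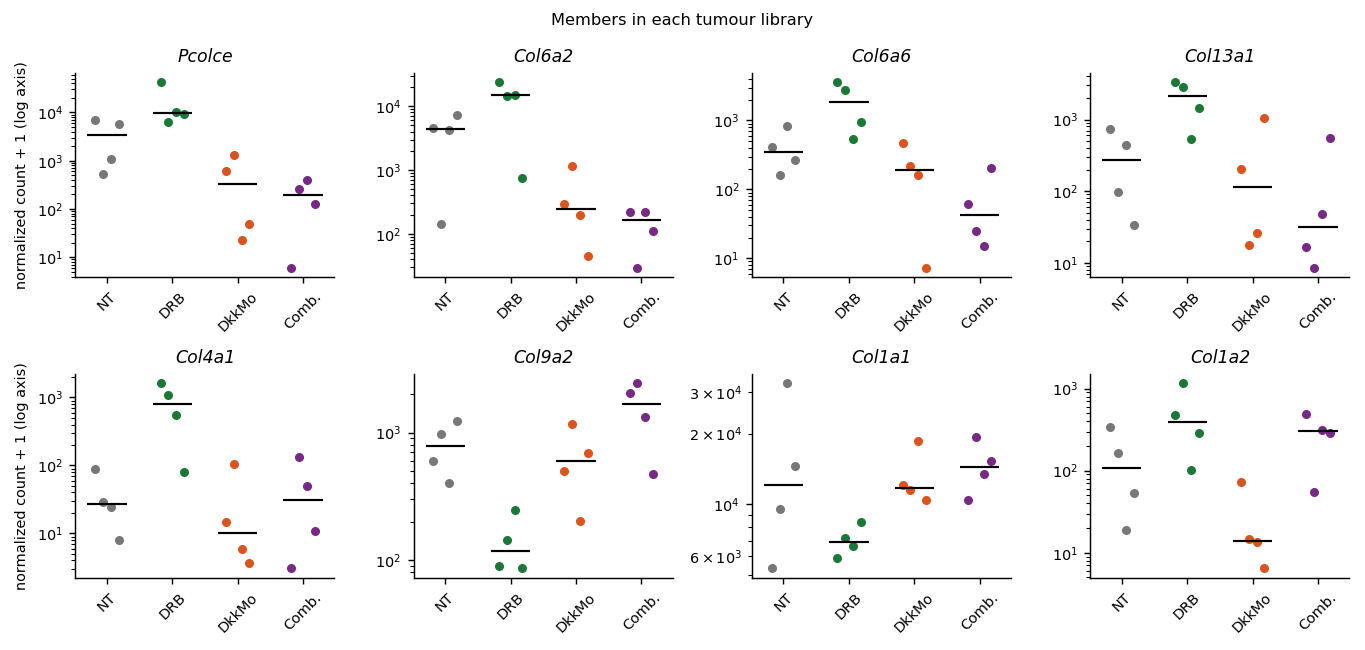
Normalized count plus 1, on a log axis, of the 6 members that were DE between Combination and DRB tumours and of the type I chains in the 16 tumours, with 1 point per tumour and a bar at the group median. Tumours of 1 group spread over 10-fold or more for most genes. Pcolce, Col6a2 and Col6a6 lie lower in each Combination tumour than in any DRB tumour, and Col9a2 and Col1a1 lie higher.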

How the data were processed

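RNA was measured by sequencing in 18 cultures and 16 tumours. The authors aligned reads to GRCm38 with HISAT2 2.1.0 and SAMtools 1.9, counted them per gene with featureCounts of Subread 2.0.0 (the submitters' processing notes also name StringTie) and deposited log2 values from the variance-stabilising transformation of DESeq2, made separately for the cultures and the tumours. How genes were chosen for these tables and the strand used in counting are not given in the sources used here. No level was tested between the tables.

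The transformation was reversed from the values themselves, which returned normalized counts and whole reads: 100% of the values tested in each culture library and at least 99.98% in each tumour library came within 0.01 of a whole read. In all, 14 culture genes were set aside because replicate cultures lay over 6 log2 units apart on the deposited scale. The tumours were not cut in this way, and 0 of their genes were set aside. A minimum of 3 culture libraries with reads was also required, and 0 members fell below it. Because the deposited unit is log2, limma 3.58.1 in R 4.3.3 (a model of group means over every library of the table, eBayes with a trend) was fitted to all genes in place of a count model. Genes were called DE at a Benjamini-Hochberg adjusted p under 0.05 over all genes tested and a change over 1.5-fold, and every adjusted p given for a gene is of this test unless another is named. An exact permutation test cannot go below p = 0.1 for 3 against 3 libraries, or 0.0286 for 4 against 4. The fit was checked on simulated data. Normalized counts are not corrected for length except where given per kb of exon. Levels are printed as normalized counts per library, in the order of the replicate numbers. Alternatives were log2 of the normalized count plus 1, voom on the recovered reads, a minimum mean of 50 normalized counts, centring on the library median, a model of the compared groups alone, the adjusted p alone, leaving out each library and a replicate block.

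Members, lists and tests were chosen with earlier results of these data known. Members were named in full if DE between DkkMo and scrMo, in the interaction or in the tumours, if among the 5 highest per kb in culture, or if among the 3 largest rises and falls called in all 3 treatments under stress, together with trimer partners and enzymes of the same family. Others (Col2a1, Col4a5, Col4a6, Col7a1, Col8a1, Col10a1, Col19a1, Col28a1 and further genes listed by name in a count) were picked after their values were seen. Exon lengths, overlaps and gene positions came from GENCODE M21 on GRCm38. The exon length of a gene was the union of all its annotated exons, so levels per kb depend on the annotation. Promoters came from RefSeq. Python 3.11.15 with NumPy 2.4.6, pandas 2.3.3 and matplotlib 3.10.9 was used for summaries and figures.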

Additional observations from a re-analysis of the deposited data

Results flagged for a closer look

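The effect of DkkMo against scrMo differed between log phase and nutritional stress by limma's interaction test in 14 members, each time lower under stress. The interaction was −1.98 for Col12a1, −1.61 for Col1a1, −1.52 for Pcolce and −1.50 for Col1a2. It was −0.95 for Col5a2, −0.94 for Col3a1, −0.89 for Col16a1, −0.85 for P4ha3, −0.84 for Col6a1, −0.80 for Col6a2, −0.76 for Col11a1, −0.65 for Col4a1, and −0.59 for both Col5a1 and Col6a3, with adjusted p from 1.36e-05 (Col5a2) to 0.0112 (Col6a1).

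In the tumours, 3 single libraries stood far from the rest of their group of 4 on the deposited log2 scale. Col6a2 was at 8.07 in NT tumour 2, against 12.11 to 12.84 in the other NT tumours, and at 9.80 in DRB tumour 4, against 13.84 to 14.53 in the other DRB tumours. P4hb was at 15.99 in NT tumour 4, against 6.23 to 6.80. Dixon's test was applied to 36 sets of 1 gene in 1 group, over 9 genes, and chance flags about 1 in 20 such sets. Groups of 3 cultures were not looked at in this way.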

How the results depend on the processing

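No call reversed. Of 1716 alternatives of the 128 calls of single members, 1615 kept the call and 101 lost it, and 99 calls held in every alternative run. The adjusted p alone was among the alternatives of each of the 128 calls. It only drops the fold threshold, so it could not lose a call and is no support for one. Counts of DE members moved by over 1.5 times as follows. With the adjusted p alone, DkkMo against scrMo gave 31 in log phase (main count 12) and 13 under stress (0), scrMo against NT 26 in log phase (12) and 22 under stress (7), DkkMo against NT 9 in log phase (1) and 20 under stress (3), stress against log phase 38 with scrMo (17), and the interaction 23 (14). Calls over all 16562 genes rose too. In the same order they went from 326, 166, 405, 734, 137, 441, 1766 and 613 to 3890, 3464, 4365, 7743, 1625, 6907, 9744 and 3673. With log2 of the normalized count plus 1, the member counts were 4 for DkkMo against scrMo under stress, 12 for scrMo against NT under stress, 2 and 8 for DkkMo against NT in log phase and under stress, and 32 for stress against log phase with scrMo. The calls over all genes were then, in this order, 891, 2923, 523, 2317 and 4477. With voom the member counts were 19 and 5 for DkkMo against scrMo in log phase and under stress, 11 for scrMo against NT under stress, 4 and 9 for DkkMo against NT in log phase and under stress, 33 for stress against log phase with scrMo and 0 for Combination against DRB tumours. Those over all genes were 1136, 918, 2946, 569, 2305, 4486 and 0. With centred libraries the member counts were 3 for DkkMo against scrMo under stress, 2 for DkkMo against NT in log phase and 3 for Combination against DRB tumours (6). Those over all genes were 172, 133 and 471. The cause of these moves was not tested, apart from the fold threshold that the adjusted p alone drops.

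Leaving out 1 library at a time gave 8 to 16 DE members for DkkMo against scrMo in log phase and 0 to 2 under stress, 10 to 14 and 6 to 8 for scrMo against NT, 1 to 5 and 2 to 3 for DkkMo against NT, 28 to 29, 15 to 21 and 28 to 29 for stress against log phase in NT, scrMo and DkkMo, 7 to 19 for the interaction, 1 to 6 for Combination against DRB and 0 to 0 for the other tumour comparisons. Calls over all genes moved as well, from 204 to 418 for DkkMo against scrMo in log phase, 463 to 736 for the interaction and 242 to 1086 for Combination against DRB.

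Replicate numbers in the titles were not used as pairs in the main fit. In no comparison did all 3 same-numbered pairs correlate above 0.1. For DkkMo and scrMo in log phase the correlations of deviations from the group mean were 0.66, −0.06 and 0.62. Such correlations over 3 libraries per group cannot decide whether some of the cultures were paired. With the replicate number as a block, 10 members were DE between DkkMo and scrMo and 2 between DkkMo and NT in log phase, beside 316 and 139 of all genes. Lox (adjusted p = 0.136) and Col6a1 (adjusted p = 0.0592) were no longer DE between DkkMo and scrMo with this block. The NT libraries under stress and the tumours could not be fitted with a block, because a title number is repeated in the former and none is shared in the latter. Depth was high, and the precision was limited by 3 or 4 libraries per group. No pair of replicates agreed within sampling noise.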

Other observations

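Several members lie side by side in the genome as pairs. The starts of Col4a1 and Col4a2 are 21 bp apart on GRCm38, yet between DkkMo and scrMo in log phase their log2 fold changes were 0.56 ± 0.07 and 0.22 ± 0.06, and in Combination against DRB tumours −2.37 ± 0.71 and 0.26 ± 0.68. The starts of Col4a5 and Col4a6 are 1309 bp apart, and both were lower with scrMo than in NT in log phase (−0.81 ± 0.12 and −1.10 ± 0.11). Col3a1 and Col5a2 converge, with 24615 bp between the genes and 191744 bp between their starts, and both fell under stress in each treatment. The difference between the members of a pair was not tested, and these pairs were picked after their values were seen.

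Col7a1, the chain of the anchoring fibrils beneath the epidermis, was higher under stress, by 0.18 ± 0.06 in NT (adjusted p = 0.0143), 0.34 ± 0.06 with scrMo (9.09e-05) and 0.92 ± 0.06 with DkkMo (1.89e-10). Its libraries were at 186, 204 and 199 in log phase NT and 224, 276 and 252 under stress. Col20a1, a fibril-associated chain, changed by 1.08 ± 0.06, 0.54 ± 0.06 and 1.11 ± 0.06 in the same order, with 392, 364 and 350.4 and 1038, 1083 and 1018 in NT. Both were picked after their values were seen.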
